A study of Mus musculus with 12 samples.

Results

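The genes described here are the 10 that carry peptide presentation on MHC class I: the class I heavy chains H2-K1 and H2-D1, their light chain B2m, the peptide transporter subunits Tap1 and Tap2, the loading chaperone Tapbp (tapasin), the immunoproteasome subunits Psmb8, Psmb9 and Psmb10, and the class I transactivator Nlrc5. They were taken by gene symbol from 23329 listed genes, of which 18810 had a count in any library. All 10 passed the filter on low counts, which kept 13038 genes. The study cultured stromal cells of the C57BL6/J mouse small intestine, labelled intestinal myofibroblast, and asked how immature and mature stroma differ in their response to a bacterial product. The 4 groups crossed stage (embryonic or adult) with treatment (LPS or PBS), with 3 libraries in each. Each stage had 3 independent cultures, from pooled embryos at E14.5 or from adult mice, and the labels name no transgene or deletion. All cells were at passages 2 to 3, and lipopolysaccharide (LPS, the Gram-negative surface glycolipid sensed by TLR4, here from Escherichia coli O111:B4) or PBS was given for 6 hours, at a final LPS concentration listed as 10 µg per µl. The replicate numbers run from 1 to 3 within each group, and a treated library and the control library that bears its number departed from their group means in the same direction. The cultures were not sorted, so they hold whatever cells survived passage.

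Class I molecules show short peptides from inside the cell to CD8+ T cells. Proteasomes cut proteins into peptides, and under inflammatory signals the constitutive catalytic subunits (encoded by Psmb5, Psmb6 and Psmb7) are replaced by the immunoproteasome subunits (Psmb8, Psmb9 and Psmb10). The Tap1 and Tap2 heterodimer pumps peptides into the endoplasmic reticulum, tapasin bridges the transporter to empty class I molecules, and a heavy chain leaves for the surface only with peptide and B2m bound. Interferons raise the whole set through STAT and IRF factors, NF-kB acts on the heavy chain promoters, and Nlrc5 acts with factors bound at a conserved module (X and Y boxes) in class I promoters. Most cells carry some class I, so the pathway can be read in stroma as well as in leukocytes.

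Of the 10 genes, 7 lie within the MHC region on chromosome 17 of the mouse genome (GRCm38.p6), which are H2-K1, H2-D1, Tap1, Tap2, Tapbp, Psmb8 and Psmb9. B2m lies on chromosome 2, and Psmb10 and Nlrc5 lie on chromosome 8. Promoters of 8 of the 10 were found in the RefSeq table of this build, and Tap2 and Nlrc5 had no entry. In the 250 bases before the start, 5 motifs were searched on both strands: a kappaB-type motif (GGNNTTNCC), an IRF-type motif (AANNGAAA), the core of the X2 box (TGACG), the core of the Y box (ATTGG) and a GAS-type motif (TTCNNNGAA). The first 4 occurred together in H2-K1, H2-D1 and B2m, against 0.18% of the 32851 promoters in the table. Each motif alone was common: 13.5% of promoters held the kappaB-type motif, 21.3% the IRF-type motif, 17.8% the X2 core, 33.8% the Y core and 7.02% the GAS-type motif. The stretch that holds neighbouring kappaB-type and IRF-type matches is shown for the 3 genes because these encode the chains of the class I molecule itself. Capitals mark the 2 matches, and each sequence is read 5′ to 3′ on the gene's strand at chr17:34000430-34000457 (minus strand), chr17:35262924-35262951 (plus strand) and chr2:122147550-122147569 (plus strand).
H2-K1: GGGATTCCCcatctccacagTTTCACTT
H2-D1: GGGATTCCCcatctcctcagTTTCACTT
B2m: AACTGAAAatgGGAAAGTCC
The H2-K1 and H2-D1 stretches differ at 1 of 28 bases. In B2m the order is turned round, with the IRF-type match farther from the start. The whole B2m window is shown because it holds 1 match to each of the 4 motifs, in capitals in the order IRF-type, kappaB-type, X2 and Y, at chr2:122147437-122147686 on the plus strand.
B2m promoter: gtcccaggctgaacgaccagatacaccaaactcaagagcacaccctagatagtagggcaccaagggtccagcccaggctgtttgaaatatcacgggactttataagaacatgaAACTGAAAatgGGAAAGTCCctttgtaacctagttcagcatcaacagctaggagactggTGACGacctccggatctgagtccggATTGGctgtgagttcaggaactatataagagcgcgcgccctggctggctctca
Tap1 and Psmb9 are read in opposite directions from RefSeq starts that lie 225 bases apart, and their windows share that stretch. The stretch held an X2 and a Y match, the same letters for both genes read on opposite strands. Neither window held a kappaB-type or an IRF-type match. Tapbp held Y matches alone, Psmb8 a GAS-type match alone and Psmb10 none of the 5. A match is only the presence of these letters in the window.

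The libraries held 18850224 to 32672370 counts assigned to genes on the library's strand (the depth of each sample), and stromal markers such as Col1a1, Vim and Acta2 were high in all 12, at a summed level of 23196 to 44560 CPM (counts scaled to a fixed library total) over 10 markers. The libraries were not free of other cells. The summed CPM of 12 macrophage markers was 197 and 318 in embryonic PBS libraries 1 and 2 and 2076 in library 3, and 150, 757 and 1541 in embryonic LPS libraries 1, 2 and 3. It was 41.3 to 108 in the 6 adult libraries, where Mertk alone stood at 44.3 (PBS) and 36.9 CPM (LPS) in number 2. Adult libraries of number 2 carried endothelial markers (a sum over 5 genes of 1749 CPM in the PBS and 1680 CPM in the LPS library), against 364 and 337 CPM in those of number 3 and 19.4 and 13.9 CPM in those of number 1. Of 5 T, NK and B cell markers, Ncr1 was at 0 in every library and the summed level never passed 0.14 CPM, and the epithelial marker Epcam stayed at or below 0.488 CPM. In bulk RNA, fewer cells of a type and less RNA per cell cannot be told apart.

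Both heavy chains, which hold the peptide, were higher with LPS in every same-numbered pair at both stages, by more in embryonic than in adult stroma. H2-K1 stood at 7.29, 21.5 and 54.1 CPM in embryonic PBS libraries 1 to 3 and at 81.8, 136 and 385 CPM in the embryonic LPS libraries of the same numbers. In adult stroma it stood at 33.0, 43.5 and 36.3 CPM with PBS and at 95.4, 96.7 and 92.4 CPM with LPS. The LPS and PBS libraries did not overlap at either stage, but the embryonic libraries spread widely while the highest adult LPS library was only 1.05 times the lowest. The level in LPS was 6.32 to 11.2 times that in PBS over the 3 embryonic pairs and 2.22 to 2.89 times over the 3 adult pairs.

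Fitted across all genes (edgeR's quasi-likelihood test, Benjamini-Hochberg adjustment over the 13038 genes), the embryonic log2 fold change of H2-K1 was 2.86 ± 0.70 (SE, n = 3 against 3), with an adjusted p of 0.0666. With a block for the replicate number inside each stage, which removes what same-numbered libraries share, it was 2.97 ± 0.16 with an adjusted p of 1.35e-05. In adult stroma the block moved H2-K1 from 1.34 ± 0.67 (adjusted p of 1) to 1.34 ± 0.15 (adjusted p of 0.00184), so it rose at both stages in the blocked fit and at neither in edgeR's unblocked fit of all 12 libraries. Other unblocked fits did call H2-K1: DESeq2 in embryonic stroma, and edgeR in adult stroma with adult libraries fitted alone.

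H2-D1 followed the same course from a higher start. It stood at 13.6, 33.2 and 86.6 CPM in the embryonic PBS libraries and at 79.5, 145 and 378 CPM in the embryonic LPS libraries. In adult stroma the levels were 42.6, 52.4 and 46.7 CPM with PBS and 75.0, 81.7 and 75.5 CPM with LPS. Embryonic PBS library 3 lay above embryonic LPS library 1, so the embryonic groups overlapped, whereas each pair gave a ratio of 4.36 to 5.87. The adult groups did not overlap, and the adult ratios were 1.56 to 1.76. The blocked log2 fold changes were 2.26 ± 0.10 in embryonic stroma (adjusted p of 4.46e-06) and 0.72 ± 0.10 in adult stroma (adjusted p of 0.0043), against adjusted p of 0.151 and 1 without the block. The heavy chains belong to a family of near-identical genes: of the 75-base windows of their transcripts, 3.1% in H2-K1 (most of them shared with H2-Q10) and 5.4% in H2-D1 (most with H2-Q1) also occurred in another gene, and uniquely mapped reads leave those stretches out.

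B2m, the light chain that every class I molecule needs, was by far the most abundant of the 10 and changed least. Its levels were 324, 294 and 511 CPM in the embryonic PBS libraries and 525, 571 and 1000 CPM in the embryonic LPS libraries. Adult libraries lay at 387, 411 and 426 CPM with PBS and at 459, 437 and 485 CPM with LPS. The groups were apart at both stages, but by small steps, with pair ratios of 1.62 to 1.96 in embryonic and 1.06 to 1.19 in adult stroma. B2m rose in embryonic stroma in the blocked fit, by 0.87 ± 0.08 on the log2 scale (adjusted p of 0.000249), and the unblocked adjusted p was 0.136. In adult stroma the blocked value was 0.17 ± 0.08 with an adjusted p of 0.292, the only one of the 10 genes that the blocked fit did not call at that stage.

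Measured per kilobase of the principal transcript, which allows genes to be compared, B2m led in all 4 groups, at 475 ± 23 CPM per kb in adult PBS (SD, n = 3) and 438 ± 136 in embryonic PBS. The next places in adult PBS were held by Tapbp at 24.7 ± 5.45, H2-K1 at 23.2 ± 3.30 and H2-D1 at 22.5 ± 2.34 CPM per kb, 3 neighbours whose order lies within their SDs. Nlrc5 was lowest in every group, at 0.0889 ± 0.0181 CPM per kb in adult PBS. In embryonic PBS the order below B2m was H2-D1 at 21.2 ± 18.0, Tapbp at 18.5 ± 5.25 and H2-K1 at 17.1 ± 14.8 CPM per kb, again within their SDs. With LPS both heavy chains had higher means than Tapbp in embryonic stroma, at 124 ± 100 CPM per kb for H2-K1 and 95.6 ± 74.6 for H2-D1 against 81.4 ± 51.0, and these could not be ordered beyond their spread either. In adult LPS, H2-K1 at 58.6 ± 1.35 CPM per kb lay above Tapbp at 47.2 ± 7.72 and H2-D1 at 36.8 ± 1.78.

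Tap1, the transporter subunit, had the most even level of the 10 across the 6 PBS libraries, and the stages separated after LPS. It stood at 10.9, 12.2 and 16.5 CPM in the embryonic PBS libraries and at 14.6, 14.8 and 12.8 CPM in the adult PBS libraries, 2 ranges that overlap. With LPS it reached 70.0, 91.3 and 278 CPM in embryonic and 28, 28.9 and 28.8 CPM in adult stroma, so every embryonic LPS library was above every adult one. The pair ratios were 6.44 to 16.8 in embryonic and 1.92 to 2.25 in adult stroma. Tap1 rose in embryonic stroma in both fits, by 3.47 ± 0.46 on the log2 scale without the block (adjusted p of 0.00407) and 3.23 ± 0.25 with it (adjusted p of 0.000106). In adult stroma the log2 fold change was 1.03 ± 0.43 (adjusted p of 0.754), and 1.03 ± 0.24 with the block (adjusted p of 0.0435).

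Tap2, its partner, began from a much lower level in embryonic stroma. Its levels were 1.29, 3.05 and 7.83 CPM in the embryonic PBS libraries against 15.1, 18.1 and 14.7 CPM in the adult PBS libraries, with no overlap. LPS libraries held 17.1, 20.2 and 93.6 CPM in embryonic and 36.2, 37.9 and 38.3 CPM in adult stroma. Embryonic LPS libraries 1 and 2 thus lay below all adult LPS libraries and library 3 above them. Tap2 rose in embryonic stroma by 3.42 ± 0.75 on the log2 scale (adjusted p of 0.0398), and by 3.33 ± 0.19 with the block (adjusted p of 1.91e-05). In adult stroma it was 1.23 ± 0.69 higher (adjusted p of 1), and it rose by 1.24 ± 0.16 in the blocked fit (adjusted p of 0.00429).

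Tapbp, which encodes tapasin, was well expressed before LPS at both stages. It stood at 53.2, 38.7 and 69.1 CPM in embryonic PBS and 158, 143 and 406 CPM in embryonic LPS libraries, and at 89.6, 60.2 and 64.9 CPM in adult PBS and 158, 113 and 139 CPM in adult LPS libraries. The groups were apart at each stage. Tapbp rose in embryonic stroma by 2.13 ± 0.40 on the log2 scale (adjusted p of 0.0184) and in adult stroma only in the blocked fit, by 0.94 ± 0.16 (adjusted p of 0.0151, against 0.731 without the block). A neighbouring gene on the same strand, Zbtb22, shares 149 exonic bases with Tapbp, and reads there cannot be assigned to either.

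**Figure D1:**
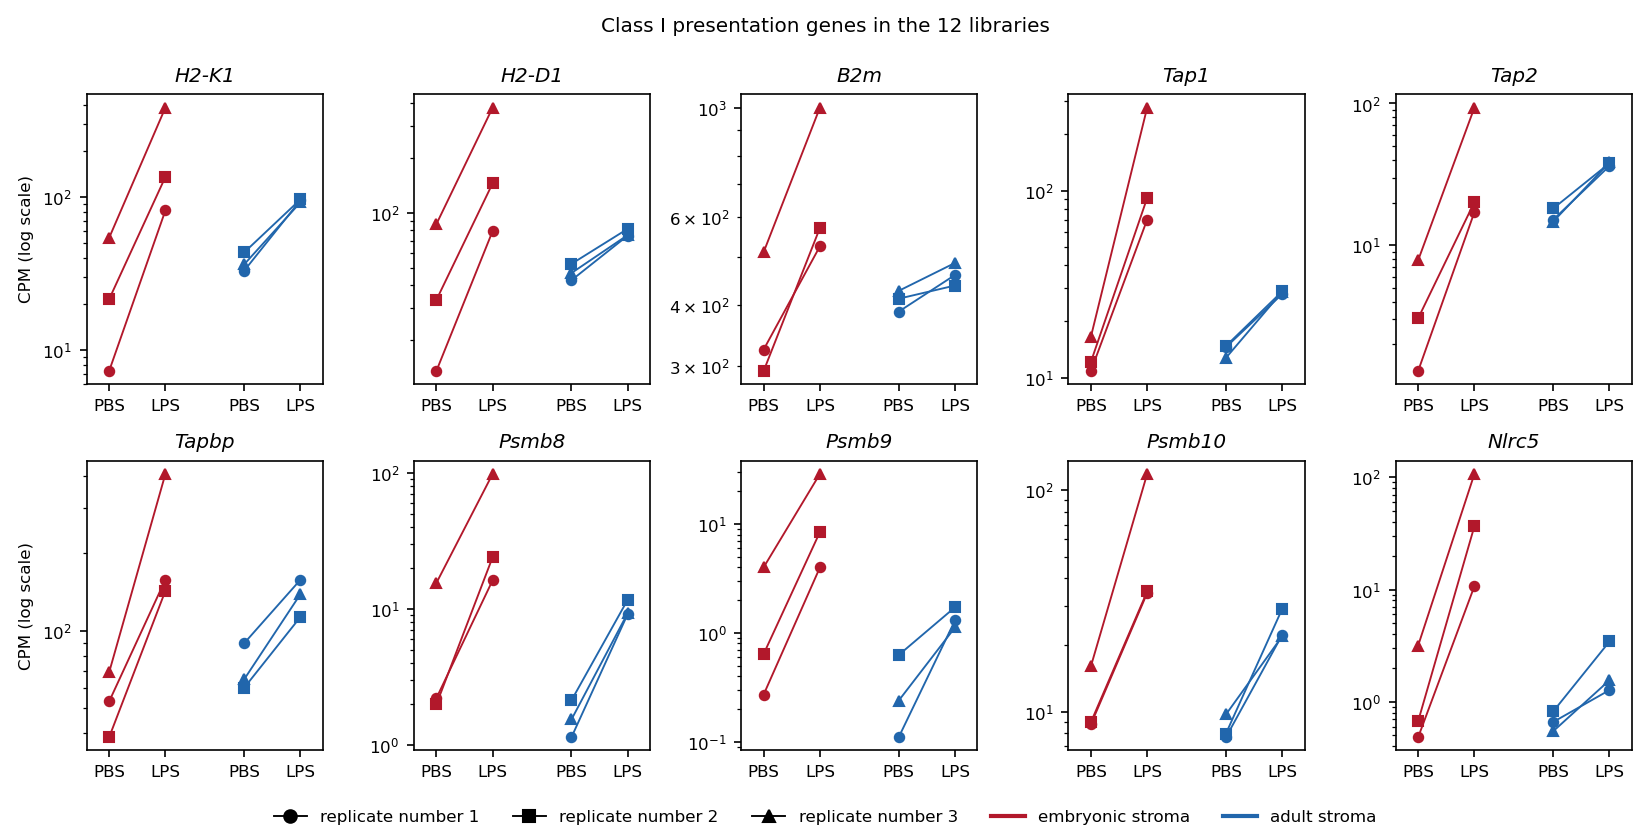
Level of each gene in CPM (log scale, a separate scale for each gene) in the 12 libraries, with lines joining LPS and PBS libraries of the same replicate number. Every line rises, and among the embryonic lines number 3 is on top. The highest embryonic PBS library was 1.52 (Tap1) to 14.8 (Psmb9) times the lowest, against 1.10 (B2m) to 5.70 (Psmb9) times in adult PBS.

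The immunoproteasome subunits were scarce before LPS in most cultures. Psmb8, the chymotrypsin-like subunit, stood at 2.20, 1.98 and 15.4 CPM in the embryonic PBS libraries and 16.2, 23.9 and 97.9 CPM in the embryonic LPS libraries. In adult stroma it went from 1.14, 2.12 and 1.53 CPM with PBS to 9.14, 11.6 and 9.28 CPM with LPS. Of the 10 genes it is the one with the most similar response at the 2 stages, with pair ratios of 6.34 to 12.1 in embryonic and 5.5 to 8.06 in adult stroma, which overlap. The blocked log2 fold changes were 3.00 ± 0.19 (adjusted p of 3.17e-05) and 2.67 ± 0.21 (adjusted p of 0.000309). Without the block they were 2.81 ± 0.87 (adjusted p of 0.167) and 2.66 ± 0.90 (adjusted p of 0.471).

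Psmb9 was the rarest subunit, at 0.271, 0.64 and 4.0 CPM in the embryonic PBS libraries and 3.99, 8.45 and 28.9 CPM in the embryonic LPS libraries. In adult stroma it was counted 3, 13 and 7 times with PBS (0.110, 0.626 and 0.238 CPM) and 40, 56 and 26 times with LPS (1.30, 1.72 and 1.12 CPM), so its adult ratios of 2.75 to 11.8 rest on few reads. Embryonic PBS library 3 lay just above embryonic LPS library 1, and the embryonic groups overlapped. It rose at both stages in the blocked fit, by 3.33 ± 0.30 on the log2 scale in embryonic (adjusted p of 0.00027) and 2.18 ± 0.41 in adult stroma (adjusted p of 0.02), and at neither in edgeR's fit without the block (adjusted p of 0.206 and 1). DESeq2 without the block called it in embryonic stroma (3.08 ± 0.95, adjusted p of 0.0245). Psmb9 and Tap1 share 212 exonic bases on opposite strands, and the counts used here keep the strands apart.

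Psmb10 was the most abundant of the 3 before LPS, at 8.79, 8.99 and 16.1 CPM in embryonic PBS and 7.69, 7.99 and 9.74 CPM in adult PBS libraries. With LPS it reached 34.4, 34.9 and 119 CPM in embryonic and 22.3, 29.2 and 22 CPM in adult stroma. No PBS library reached any LPS library. It rose in embryonic stroma in both fits, by 2.47 ± 0.47 on the log2 scale without the block (adjusted p of 0.0205) and 2.28 ± 0.21 with it (adjusted p of 0.000276). In adult stroma it rose in the blocked fit, by 1.52 ± 0.21 (adjusted p of 0.00487, against 0.316 without the block). It was also called without the block when adult libraries were fitted alone.

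The constitutive subunits that these 3 replace lay at like levels with and without LPS. Psmb5 stood at 33.5 ± 3.14 CPM in embryonic PBS and 33.3 ± 2.29 CPM in embryonic LPS (SD, n = 3), Psmb6 at 130 ± 9.37 and 140 ± 18.0 CPM, and Psmb7 at 160 ± 20.4 and 162 ± 17.3 CPM. Their embryonic log2 fold changes were -0.01 ± 0.12, 0.11 ± 0.13 and 0.01 ± 0.12, and none of the 3 was called at either stage in either fit. The level of each immunoproteasome subunit as a share of itself and its constitutive counterpart, both per kilobase, was therefore computed in every library.

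The Psmb8 share was 3.73, 2.87 and 21.0% in the embryonic PBS libraries and 22.3, 28.5 and 60.3% in the embryonic LPS libraries. In adult stroma it was 2.25, 3.65 and 2.82% with PBS and 11.8, 16.8 and 15.3% with LPS. With the principal transcript as length, the Psmb8 level exceeded that of Psmb5 in embryonic LPS library 3 only. The Psmb10 share rose from 4.93, 4.14 and 8.80% to 17.5, 14.8 and 39.0% in embryonic stroma and from 4.74, 5.08 and 6.03% to 11.5, 16.2 and 12.5% in adult stroma. The Psmb9 share stayed under 10% throughout, from 0.125, 0.269 and 1.91% to 1.92, 3.35 and 9.90% in embryonic and from 0.057, 0.37 and 0.124% to 0.603, 0.991 and 0.564% in adult stroma. Averaged over the stages, LPS moved the shares by 19.8 percentage points for Psmb8, 13.0 for Psmb10 and 2.41 for Psmb9. The size of the shares depends on the length used. Dividing by the union of all exons instead gave 12.4 points for Psmb8, 21.1 for Psmb10 and 2.11 for Psmb9, which turned the order of Psmb8 and Psmb10. In an exact two-sided permutation test of the labels within each stage (400 arrangements) the p was 0.005 for each of the 3 (adjusted p of 0.005), which is the smallest this design allows. With the treatment swapped only within same-numbered pairs (64 arrangements) the exact p was 0.0313 for each, again the smallest possible. Within a single stage 3 libraries against 3 cannot go below 0.1, so the stages are given as values. Without embryonic LPS library 3 the Psmb9 difference was 1.2 points (p of 0.03). The Psmb9 p rose to 0.115 without embryonic PBS library 1, 0.115 without library 2 and 0.1 without library 3.

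**Figure D2:**
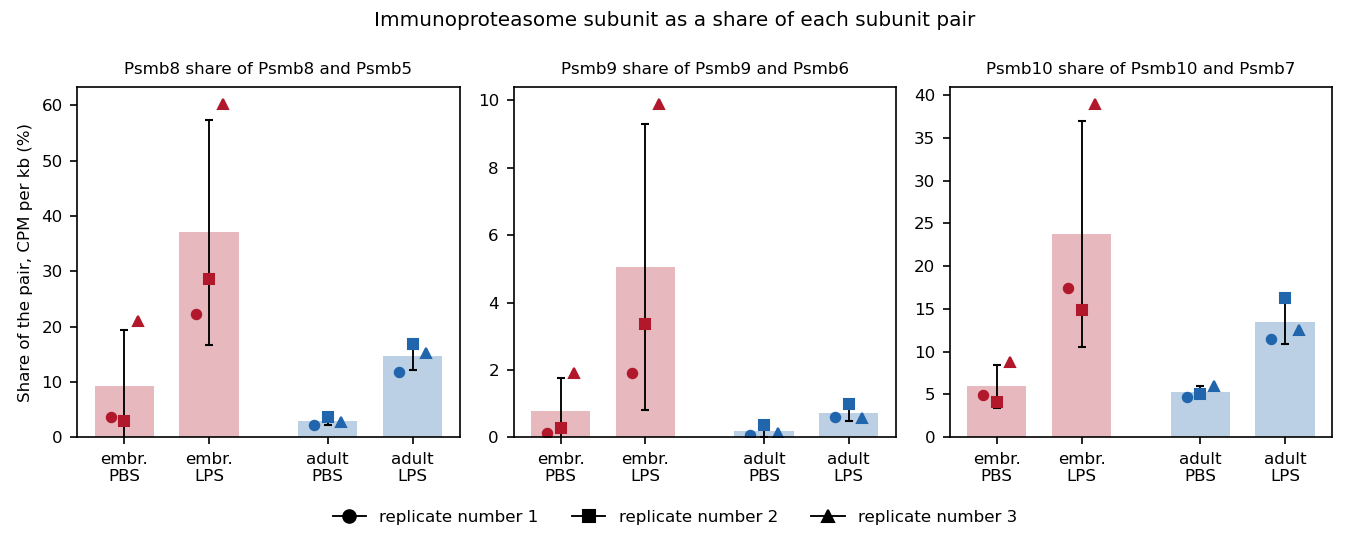
Share of each immunoproteasome subunit in the pair it forms with its constitutive counterpart (%, from CPM per kilobase of the principal transcript), in each library (points), with the group mean (bar) and SD (line). The Psmb8 share reaches 60.3% in embryonic LPS library 3 and 16.8% at most in adult LPS libraries, and the Psmb9 share stays under 10%.

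Nlrc5, the transactivator of class I genes, had few counts before LPS and showed the largest response of the 10 in embryonic stroma. Its levels were 0.482, 0.670 and 3.17 CPM in the embryonic PBS libraries (16, 22 and 106 counts) and 10.7, 36.7 and 107 CPM in the embryonic LPS libraries. Adult libraries held 0.659, 0.818 and 0.545 CPM with PBS and 1.27, 3.44 and 1.55 CPM with LPS. Each embryonic LPS library was above every other library outside its group, and the pair ratios were 22.2 to 54.8 in embryonic against 1.93 to 4.20 in adult stroma. Nlrc5 rose in embryonic stroma in both fits, by 5.16 ± 0.97 on the log2 scale without the block (adjusted p of 0.0203) and 5.16 ± 0.24 with it (adjusted p of 6.08e-06). In adult stroma it was 1.64 ± 0.93 higher without the block (adjusted p of 1) and rose by 1.55 ± 0.30 with it (adjusted p of 0.0226).

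Counted together, 5 of the 10 genes rose in embryonic stroma without the block (Tap1, Tap2, Tapbp, Psmb10 and Nlrc5), where 2.67% of all tested genes rose. All 5 also had a log2 fold change of at least 2, and 1.87% of all tested genes met both this and an adjusted p under 0.05. The median log2 fold change was 2.84 over the 10 genes and -0.00 over all genes. The median over the 10 was 1.73 without embryonic LPS library 3 and 3.74 without embryonic PBS library 3. With the block all 10 rose, against 9.43% of all genes. In adult stroma none of the 10 was called by edgeR's quasi-likelihood test without the block, where 0.598% of all genes rose. At an unadjusted p under 0.05 there were 4 (Tap1, Tapbp, Psmb8 and Psmb10), against 727 of the 13038 genes. DESeq2 called 1 (Psmb8, adjusted p of 0.0457, where it called 2.25% of all genes) and edgeR's likelihood ratio test 0 (1.91% of all genes). With the block 9 of 10 rose in adult stroma, all but B2m, against 4.69% of all genes, with a median log2 fold change of 1.29 over the 10. All 3 LPS libraries lay above all 3 PBS libraries for 8 of the 10 genes in embryonic stroma, against 7.59% of all genes, and for 10 of 10 in adult stroma, against 9.1%. The unblocked embryonic count depended on single libraries: only Tap1 was called without embryonic PBS library 1 (where 0.871% of all genes were called in either direction) and only Tap1 without library 2 (1.78%), 3 genes without embryonic LPS library 3 (1.73%) and 9 without embryonic PBS library 3 (1.95%). With embryonic libraries fitted alone, none of the 10 was called by edgeR's quasi-likelihood test, where 0.0317% of all genes were. All 10 had an unadjusted p under 0.05, against 1000 of the 12620 genes in that fit. Adult libraries fitted alone gave 6 calls without the block (H2-K1, H2-D1, Tap1, Tap2, Psmb8 and Psmb10), where 1.81% of all genes were called. Without embryonic LPS library 3, Tap1 and Psmb10 were called in adult stroma, where 1.11% of all genes were.

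**Figure D3:**
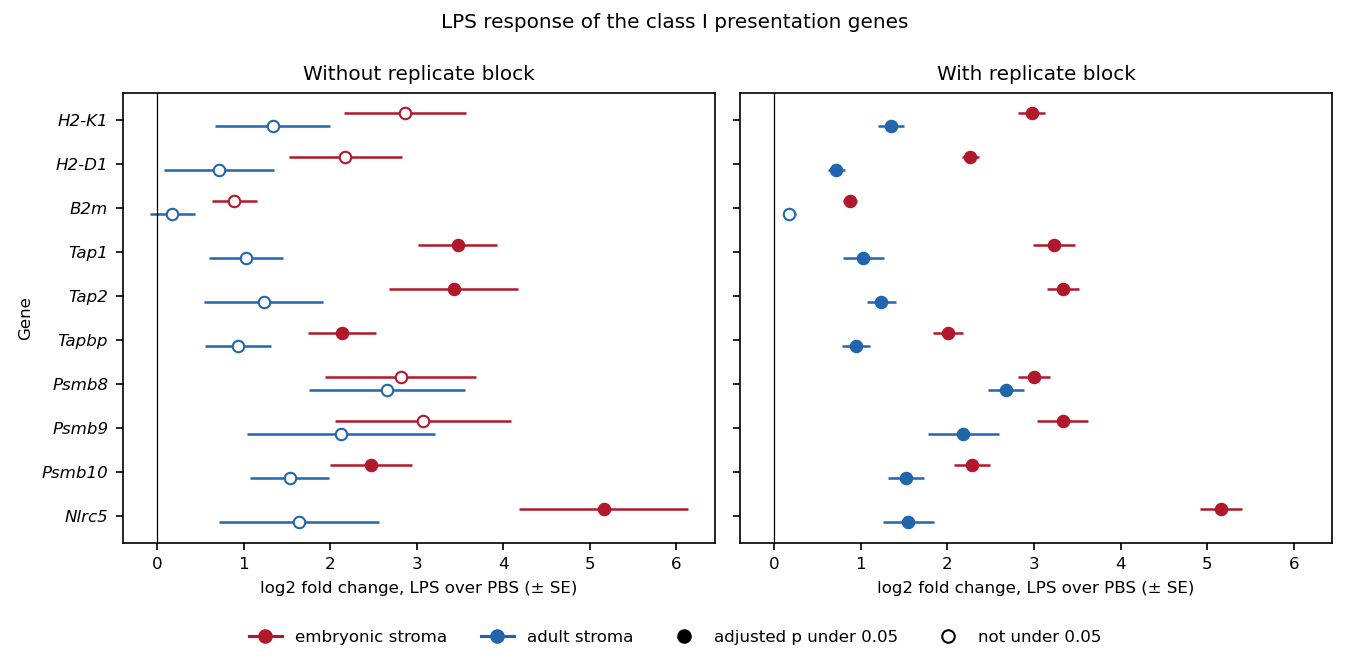
Fitted log2 fold change of LPS over PBS (± SE) for each gene in embryonic and adult stroma, without (left) and with (right) the replicate number as a block; filled points have an adjusted p under 0.05. The estimates hardly move between the panels while the standard errors shrink, so that all 10 genes in embryonic and 9 in adult stroma pass on the right.

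Whether the response itself differed between the stages was tested as an interaction. Without the block none of the 10 genes was called by edgeR's quasi-likelihood test, and 0% of the 13038 genes were. At an unadjusted p under 0.05 there were 4 (Tap1, Tap2, Tapbp and Nlrc5), against 293 of the 13038 genes. DESeq2 called 1 (Tap1, adjusted p of 0.0465), as did edgeR's likelihood ratio test (also Tap1), against 0.192% of all genes in each of these 2 fits. With the block the response was larger in embryonic stroma for 6 genes, against 0.798% of all genes. These were both heavy chains, B2m, both transporter subunits and Nlrc5. The difference of log2 fold changes was 3.61 ± 0.41 for Nlrc5 (adjusted p of 0.00814), 2.20 ± 0.33 for Tap1 (adjusted p of 0.0292) and 2.10 ± 0.25 for Tap2 (adjusted p of 0.00906). For the chains it was 1.63 ± 0.21 for H2-K1 (adjusted p of 0.0148), 1.54 ± 0.13 for H2-D1 (adjusted p of 0.00214) and 0.70 ± 0.11 for B2m (adjusted p of 0.0328). The 3 immunoproteasome subunits and Tapbp were not called: the differences were 0.33 ± 0.28 for Psmb8, 1.15 ± 0.55 for Psmb9, 0.76 ± 0.29 for Psmb10 and 1.06 ± 0.23 for Tapbp, and a difference of that size in the direction of the other 6 was not shown to be absent. All 3 embryonic pair ratios lay above all 3 adult ones for 8 genes, and overlapped for Psmb8 and Psmb9. The share of all genes with such a separation is not given here, so this count describes the 10 genes only.

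The stages were also compared directly, first before and then after LPS. With PBS none of the 10 genes was called by edgeR, where 4.08% of all genes were. An unadjusted p under 0.05 was found for 2 of the 10 (Tap2 and Psmb8) and for 2586 of the 13038 genes, a like share. DESeq2 called 1 (Tap2, adjusted p of 0.0324), where it called 11.9% of all genes. Tap2 was 1.98 ± 0.71 lower on the log2 scale in embryonic stroma in the edgeR fit (adjusted p of 0.152). With LPS, Tap1 was 2.36 ± 0.44 higher in embryonic stroma (adjusted p of 0.0192) and Nlrc5 4.62 ± 0.95 higher (adjusted p of 0.0253), 2 of 10 against 3.04% of all genes. Neither was called when any one of the adult LPS libraries was left out (1.01 to 1.94% of all genes were), and without embryonic LPS library 3 Tap1 alone was (2.66% of all genes). Tap2 had the smallest stage difference after LPS, 0.22 ± 0.68 (adjusted p of 0.896), and without embryonic LPS library 3 its sign turned, to -1.03.

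The embryonic libraries of number 3 held the highest level of all 10 genes within their groups, with PBS as well as with LPS. The share of all genes highest in those libraries is not given here, so this count describes the 10 genes only. With PBS, library 3 was 1.44 (Tap1) to 8.79 (Psmb9) times the mean of libraries 1 and 2, with a median of 3.65 over the 10 genes, and with LPS 1.83 (B2m) to 5.02 (Tap2) times, with a median of 3.49. The same 2 libraries held the highest macrophage markers, 2076 (PBS) and 1541 CPM (LPS) over the 12 genes, for example C1qa at 310 and 194 CPM and Csf1r at 286 and 124 CPM. Within embryonic pairs 1 to 3 the marker sum with LPS was 0.762, 2.38 and 0.743 times that with PBS, and all 10 class I genes were higher with LPS in each. The sum joins markers that moved in opposite directions. Ptprc, Adgre1 and Fcer1g were higher with LPS in all 3 pairs, Cx3cr1 was lower in all 3, and the other markers differed between pairs. Ptprc went from 7.53, 9.75 and 59.1 CPM to 19.5, 64.4 and 162 CPM, and Cx3cr1 from 23.8, 26.4 and 271 CPM to 5.99, 5.18 and 17.5 CPM. The summed level of 5 endothelial markers was higher with LPS in all 3 embryonic pairs, at 1.12, 2.27 and 3.32 times that with PBS (8.31 to 31.0 CPM with PBS and 27.5 to 34.6 CPM with LPS). In adult pairs it was 0.716, 0.96 and 0.924 times. The embryonic rise lay mainly in Kdr, from 8.70, 12.2 and 7.38 CPM to 11.2, 29.5 and 26.4 CPM. Emcn went from 21.7, 0.518 and 0.209 CPM to 22.1, 0.587 and 0.194 CPM, and Pecam1, Cdh5 and Tek did not pass 1.09 CPM in any embryonic library. None of the 12 macrophage markers was called for LPS in embryonic stroma by edgeR without the block, where 2.75% of all genes were. At an unadjusted p under 0.05 there was 1, against 1407 of the 13038 genes, and DESeq2 called 0, against 5.25% of all genes. With the block 3 of the 12 rose and 1 fell, as did 1229 and 406 of the 13038 genes. Between the stages, the median log2 difference of the 12 macrophage markers was 4.37 with PBS and 4.08 with LPS, higher in embryonic stroma. Without the block edgeR called 1 of the 12 with PBS and 0 with LPS, where 4.08% and 5.31% of all genes were called. Mertk went the other way in adult number 2, at 44.3 (PBS) and 36.9 CPM (LPS) against at most 26.6 CPM in embryonic libraries. The part of macrophages and of endothelial cells in the levels of the 10 genes was not tested. Without both embryonic libraries of number 3, a choice made after seeing the data, 9 of the 10 genes were called in embryonic stroma without the block (all but Psmb9, adjusted p of 0.0529) and all 10 with it, where 1.90% and 7.98% of all genes were called. The interaction was then called for Tap1 without the block (1.76 ± 0.18, adjusted p of 0.0203; 0.137% of all genes) and for 7 genes with it, the former 6 and Tapbp, against 0.921% of all genes. Tap2 was then lower in embryonic than adult stroma with PBS (-2.89 ± 0.33, adjusted p of 0.00466). In adult stroma, whose macrophage marker sums lay at 41.3 to 108 CPM, the pair ratios of these sums were 0.838 to 1.03. Mertk made up most of the sum in adult number 2, at 44.3 of 53.7 CPM with PBS and 36.9 of 45.0 CPM with LPS. Ptprc and Adgre1 were higher with LPS in all 3 adult pairs, and Cx3cr1 and Mertk were lower in all 3. The other markers differed between adult pairs.

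**Figure D4:**
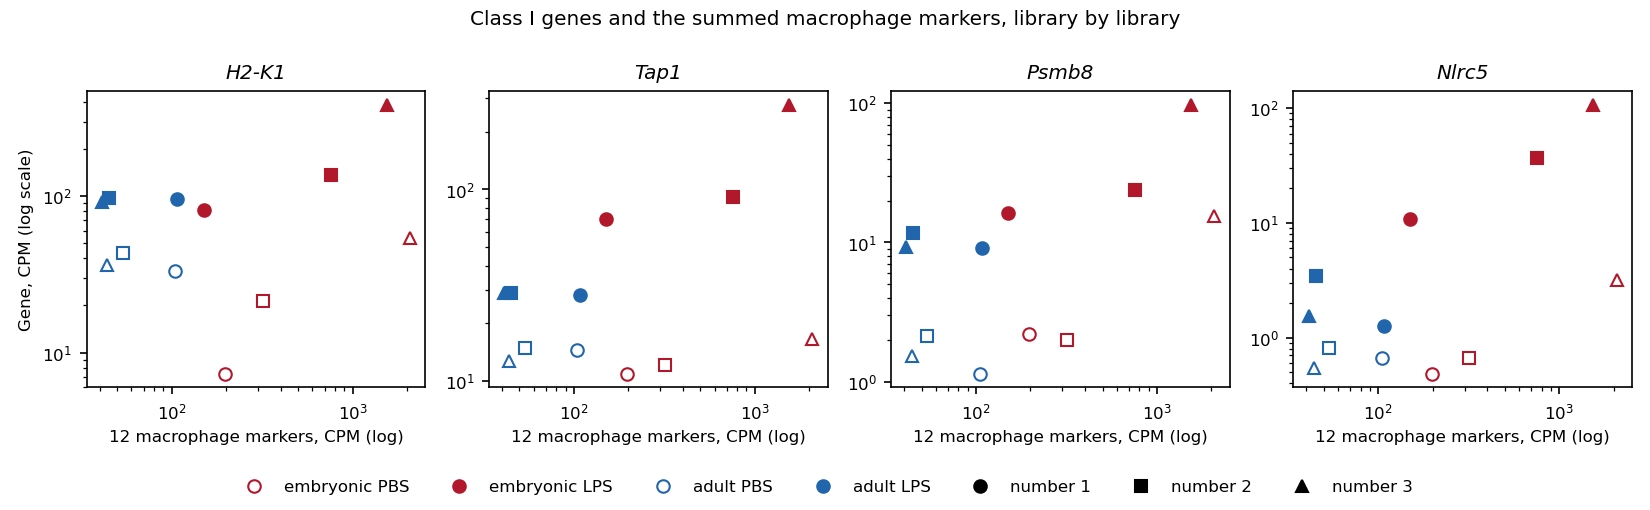
Level of H2-K1, Tap1, Psmb8 and Nlrc5 (CPM, log scale) against the summed level of 12 macrophage markers (CPM, log scale) in the 12 libraries. Embryonic libraries of number 3 lie farthest right, at marker sums of 1541 (LPS) and 2076 CPM (PBS). In each same-numbered pair the LPS library lies above the PBS library for each gene shown. The marker sum with LPS was 0.743 to 2.38 times that with PBS in the embryonic pairs. The part of macrophages in the levels was not tested.

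The rest of the pathway was read from wider lists. Of 17 other class I chains 10 passed the filter, and 4 of them rose in embryonic stroma without the block, against 2.67% of all genes. They were H2-Q4, by 4.57 ± 0.79 on the log2 scale (adjusted p of 0.0134), H2-T10, by 4.25 ± 0.85 (adjusted p of 0.0261), H2-Q6 and H2-M2. H2-Q4, a non-classical chain, went from 0.903, 1.10 and 3.47 CPM with PBS to 25.5, 20 and 85.1 CPM with LPS. H2-Q6 and H2-M2 had almost no counts with PBS (at most 0.0299 and 0.122 CPM) and reached 0.828 to 5.90 CPM and 0.805 to 15.9 CPM with LPS, so no fold is given for them. With the block 8 rose in embryonic and 4 in adult stroma, against 9.43% and 4.69% of all genes. The median over the 10 on the log2 scale was 2.28 in embryonic and 1.06 in adult stroma, or 0.65 in adult stroma with the 3 chains that had at most 3 counts in each PBS library set to their lower bound, against -0.00 and -0.01 over all genes. Mr1, a class I-like molecule that presents vitamin metabolites to MAIT cells, stood apart: it was not called for LPS in either fit but was lower in embryonic stroma, with a log2 difference from adult stroma of -1.46 ± 0.25 in PBS (adjusted p of 0.0144) and -1.57 ± 0.26 in LPS libraries (adjusted p of 0.0109).

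Among 8 other genes of peptide loading and trimming, which include the general glycoprotein chaperones Calr and Canx and the oxidoreductase Pdia3, none was called by edgeR without the block. At an unadjusted p under 0.05 there were 2 in embryonic and 1 in adult stroma, against 1407 and 727 of the 13038 genes. DESeq2 called 1 and 0, against 5.25% and 2.25% of all genes. The median log2 fold changes of the 8 were 0.22 (embryonic) and 0.02 (adult). With the block 2 of the 8 rose in embryonic stroma and 1 in adult stroma, against 9.43% and 4.69% of all genes. The trimming peptidase Erap1 rose at both stages, by 0.70 ± 0.11 (adjusted p of 0.00605) and 0.67 ± 0.11 (adjusted p of 0.0134), and Tapbpl, a tapasin relative, rose in embryonic stroma by 1.11 ± 0.26 (adjusted p of 0.0301). Of 20 proteasome core and activator genes 2 rose in embryonic stroma without the block, where 2.67% of all genes rose. They were Psme2, a subunit of the PA28 activator that caps immunoproteasomes, by 1.56 ± 0.32 (adjusted p of 0.0273), and the core subunit Psma6, by 0.60 ± 0.14 (adjusted p of 0.0456). Psme1, the other PA28 subunit, had a value of 1.21 ± 0.36 (adjusted p of 0.146) and rose in the blocked fit by 1.12 ± 0.11 (adjusted p of 0.000441). The 14 constitutive core subunits had log2 fold changes of -0.10 to 0.60 in embryonic and 0.01 to 0.56 in adult stroma, Psma6 being the highest at both, with medians of 0.04 and 0.08.

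**Figure D5:**
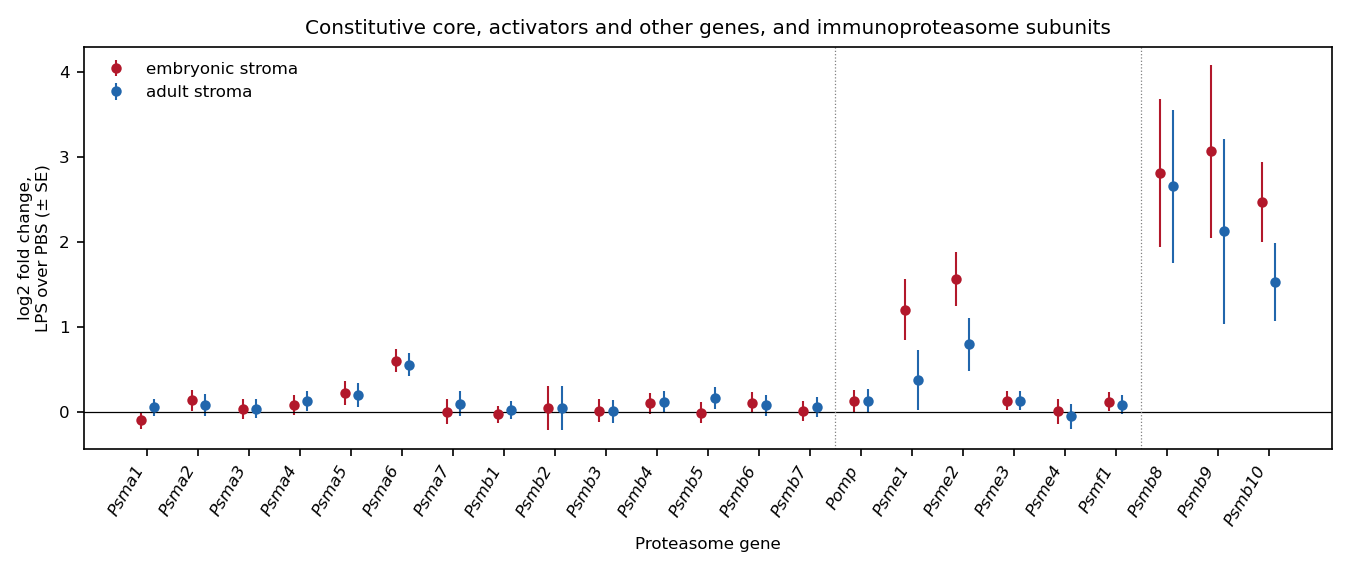
Log2 fold change of LPS over PBS (± SE, without the block) for 14 constitutive core subunits (left), 6 activators and other genes (middle) and 3 immunoproteasome subunits (right). The core lies between -0.10 and 0.60, and the immunoproteasome subunits lie between 1.53 and 3.07.

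Among 15 regulators of class I genes, 14 of them tested, 6 rose in embryonic stroma and 3 in adult stroma without the block. The shares over all genes were 2.67% and 0.598%. In embryonic stroma these included Stat2 (4.23 ± 0.65, adjusted p of 0.00822), Irf1 (4.19 ± 0.65, adjusted p of 0.0087) and Irf9 (2.47 ± 0.51, adjusted p of 0.031), which carry interferon signals to the nucleus. In adult stroma they were Irf1 (3.53 ± 0.64, adjusted p of 0.0426), Nfkb1 (2.19 ± 0.29, adjusted p of 0.0102) and Rela (0.98 ± 0.17, adjusted p of 0.0323), the last 2 encoding subunits of NF-kB. In the blocked fit the response of Stat2 (2.57 ± 0.11, adjusted p of 0.000218) and Irf9 (1.66 ± 0.21, adjusted p of 0.0129) was larger in embryonic stroma, and that of Irf1, Nfkb1 and Rela was not called as different. Ifnb1, which encodes interferon beta, had no count in the 6 PBS libraries, which allows up to 0.0896 to 0.144 CPM, and stood at 1.33, 12.6 and 24.1 CPM in embryonic and 1.11, 0.154 and 0.259 CPM in adult LPS libraries. Ifng, which encodes interferon gamma, had 1 count in all 12 libraries together. The interferon receptor genes Ifnar1, Ifnar2, Ifngr1 and Ifngr2 lay between 34.1 and 279 CPM in all libraries.

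Across the 12 libraries the 10 genes varied together. Pearson's r between 2 of them on log2 CPM had a median of 0.88 over the 45 pairs, from 0.53 (Tap2 and Psmb9) to 0.97 (H2-K1 and H2-D1). These points share treatment, stage and culture, so r is a description only. The 5 other genes whose log2 CPM ran closest to the mean standardized profile of the 10 were Parp12 (r = 0.99), Ifi204 (0.98), Znfx1 (0.98), Zc3hav1 (0.98) and Mndal (0.98), all of them known interferon-responsive genes. Parp12, a mono-ADP-ribosyltransferase, stood at 8.16, 8.13 and 21.4 CPM in embryonic PBS, 74.8, 60.3 and 255 CPM in embryonic LPS, 12.6, 16.6 and 14.6 CPM in adult PBS and 30.6, 37.4 and 33.7 CPM in adult LPS libraries.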

How the data were processed

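mRNAseq (polyA+, stranded, single-end 75 bp) was deposited for 12 libraries, 3 in each of 4 groups. Per the paper's methods, the authors trimmed reads, mapped them to GRCm38.p6 with STAR and counted unique reads with at most 1 mismatch. The deposited values are raw counts per gene on either strand and on each strand, and the column of the library's strand was used here. Rows that name no gene were left out, among them multimapping reads (8.45 to 9.37%). Unique mapping leaves out stretches shared by class I genes.

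Genes above 0.5 CPM in all samples of a group were tested in R 4.3.3 with edgeR 4.0.16 (TMM, quasi-likelihood test, 4 groups in 1 fit). Calls had a Benjamini-Hochberg adjusted p under 0.05. SE is the log2 fold change over the square root of F, and CPM uses TMM library sizes, which makes its counting floor (3 counts) 0.0896 to 0.144. Scripts were tested on simulated data. DESeq2 1.42.0, other normalizations, filters and thresholds, and left-out libraries were alternatives. Same-numbered LPS and PBS libraries of a stage correlated in their deviations from the group means (r of 0.71 to 0.784 in embryonic and 0.61 to 0.85 in adult stroma, every other pairing at or below 0.0218). The pairing comes from the labels' numbers, and the sources used here do not state it, so blocked values are given beside the others. No 2 libraries were duplicates. The 3 libraries of a group came from independent cultures. Unblocked p-values of the fits rest on the spread between libraries within groups, estimated over both stages together, so wide embryonic spread also enters the adult tests. Blocked p-values rest on the spread of the LPS to PBS difference between same-numbered pairs. Per-kilobase levels used the APPRIS principal transcript, and promoters came from RefSeq for GRCm38.p6. Named genes were the 10, the subunits Psmb5, Psmb6, Psmb7, Psme1 and Psme2, up to 4 called genes with the largest change per list and comparison, interferons and their receptors, and the 5 genes most alike over the libraries. A result under this rule is not reported here. The genes and lists were chosen with earlier results of these data known. Figures were drawn with matplotlib 3.10.9 in Python 3.11.15.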

Additional observations from a re-analysis of the deposited data

Results flagged for a closer look

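With the replicate block, the LPS response differed between embryonic and adult stroma by the test of the difference itself for 6 of the 10 genes: by 3.61 on the log2 scale for Nlrc5, 2.20 for Tap1, 2.10 for Tap2, 1.63 for H2-K1, 1.54 for H2-D1 and 0.70 for B2m, larger in embryonic stroma in each case. All 3 embryonic pair ratios lay above all 3 adult ones for each of these 6, a description given without the share of all genes. Without the block edgeR's quasi-likelihood test called none (4 at an unadjusted p under 0.05, against 293 of the 13038 genes), and DESeq2 and edgeR's likelihood ratio test each called Tap1 alone. Groups of 3 libraries are too small for a test of single outlying samples.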

How the results depend on the processing

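Percentages are the share of all tested genes called in the same fit. The count of class I genes called in embryonic stroma (5, 2.75%) was 1 at an adjusted p under 0.01 (0.913%), 10 with DESeq2 (5.25%), 9 with the likelihood ratio test (4.69%), 10 with the replicate block within stage (12.5%), 0 when embryonic libraries were fitted alone (0.0317%) and 10 when alone and blocked (5.63%). It was 9 without both embryonic libraries of number 3 (1.90%), 10 with the block (7.98%) and 1 to 9 with 1 library left out (0.871 to 3.59%). In adult stroma the count (0, 0.606%) was 1 with DESeq2 (2.25%), 9 with the replicate block (6.2%), 6 when adult libraries were fitted alone (1.81%), 9 when alone and blocked (14.4%), 3 without both embryonic libraries of number 3 (1.39%), 9 with the block (9.46%) and 0 to 2 with 1 library left out (0.0306 to 1.11%). Interactions (0, 0%) numbered 1 with DESeq2 (0.192%), 1 with the likelihood ratio test (0.192%), 6 with the replicate block (0.844%), and 1 (0.137%), or 7 with the block (0.921%), without embryonic number 3. Between stages with PBS the count (0, 4.08%) was 1 with DESeq2 (11.9%) and 1 without embryonic number 3 (3.87%). With LPS the count (2, 5.31%) was 0 at an adjusted p under 0.01 (0.736%), 5 with DESeq2 (13.1%), 4 with the likelihood ratio test (10.4%), 0 with LPS libraries fitted alone (0.546%) and 0 to 3 with 1 library left out (1.01 to 6.21%). The causes were not tested beyond the fewer libraries or the block in these fits. The replicate block across stages left both stage counts as they were. The share differences with 1 library left out were 14.0 to 23.5 points for Psmb8, 9.17 to 15.2 for Psmb10 and 1.2 to 3.2 for Psmb9.

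The sign turned in some fits for 8 values, none of them called with all libraries. Leaving out 1 library gave, between stages with PBS, -1.39 to 0.0055 for H2-K1, -1.02 to 0.34 for H2-D1, -0.40 to 0.026 for B2m, -0.29 to 0.030 for Tap1 and -0.21 to 1.51 for Nlrc5, with the ends set by embryonic PBS libraries. It gave -1.03 to 0.60 for Tap2 between stages with LPS, and -1.07 to 1.80 for Psmb8 and -0.24 to 2.78 for Psmb9 in the interaction. Nlrc5 with PBS was -0.23 without both number 3 libraries, Tap2 with LPS was -1.04 without them and -0.21 with the block across stages, and the Psmb8 interaction was -0.029 with library totals. Low counts limited Psmb9 and Nlrc5 before LPS.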

Other observations

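The balance of the 2 transporter transcripts differed between the stages, a comparison chosen after its values were seen. Per kilobase, the Tap1 level was 9.79, 4.65 and 2.46 times the Tap2 level in embryonic PBS libraries 1 to 3 and 4.76, 5.28 and 3.46 times in the embryonic LPS libraries. In adult stroma the ratio was 1.12, 0.949 and 1.01 with PBS and 0.901, 0.89 and 0.875 with LPS, so every embryonic library lay above every adult one. The difference was not tested, and 3 cultures against 3 could not give an exact p below 0.1.

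Adult libraries of number 2, which carried the most endothelial markers, held the highest level of their group for 7 of the 10 genes with PBS and 7 with LPS, for example Psmb8 (2.12 and 11.6 CPM). They held the lowest level for Tapbp with both treatments (60.2 and 113 CPM) and for B2m with LPS (437 CPM). The share of all genes highest in adult number 2 is not given here, so these counts describe the 10 genes only. The part of endothelial cells in these values was not tested.

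The epithelial marker list was not uniformly silent: Krt20 stood at 21.5 to 59.1 CPM in the embryonic and 7.04 to 13.3 CPM in the adult libraries, while Epcam, Cldn7 and Vil1 did not pass 0.488 CPM in any.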
